A study of Mus musculus with 298 samples.

Results

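The T-box genes Tbx2, Tbx3 and Tbx20, the homeobox gene Hmx1, and the SoxC genes Sox4 and Sox11 were examined in individual cells from sympathetic ganglia of the mouse thorax. They are 6 of the 16892 genes in the expression table, taken by their names. All 6 passed the filter on low counts used for testing. The mice came from a cross of a Wnt1-Cre driver with the R26R-Tomato reporter, which marks descendants of the neural crest, and every group shares this genotype. Wnt1-Cre also reaches the glia of the ganglion, so the reporter alone does not separate neurons from glia.

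All 6 genes encode proteins that bind DNA. Tbx2 and Tbx3 are close relatives known mainly as repressors in limb, heart and gland development, while Tbx20 is known from heart muscle and from cranial motor neurons. Hmx1 is a homeobox factor of sensory and sympathetic ganglia. In the developing sympathetic ganglion it has been described as favouring the noradrenergic over the cholinergic fate, opposed by the growth factor receptors Ret and Ntrk3. Sox4 and Sox11 are intronless genes of the SoxC group, which act in newly formed neurons and have been tied to proliferation and survival in the embryonic sympathetic ganglion.

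RNA was counted in 298 cells of postnatal days 11 to 38, and the labels place 213 of them in 8 identities and leave 85 unclassified. The noradrenergic identities held 193 cells, with 10, 39, 18 and 23 in Noradrenergic1, Noradrenergic2, Noradrenergic4 and Noradrenergic5, or 90 together, and the remainder in Noradrenergic3. Ach1 and Ach2 held 8 cells each and are called cholinergic here, and 4 cells were labelled Glutamatergic. Cells of 1 sex and age form a collection, of which there were 10, with 7 labelled female and 3 labelled male, and the collection served as the replicate because the labels name no animals. The cells came from 24 capture chips, and some collections pool cells of several chips. Differences between chips were not examined. How the identities were assigned is not given in the sources used here. If they were drawn from the same transcriptomes, a p-value between identities is not independent evidence of a difference.

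The labels were set against marker genes. Cholinergic cells were higher in 4 of 4 cholinergic markers tested and lower in 5 of 6 noradrenergic markers, and Glutamatergic cells were higher in the 1 glutamate transporter gene tested, Slc17a6, and in 6 of 7 genes of sensory neurons. The Glutamatergic cell of P33 female held 130 counts of the noradrenergic marker Th, against 0 to 3 in the other Glutamatergic cells. The 5 cells of the P16 collection are labelled female, but all 5 held Y-linked counts, 28 in sum, and 0 held Xist. Without this collection, Tbx20, Hmx1, Sox4 and Sox11 were still called between cholinergic and noradrenergic cells, at log2 fold changes of -2.86, -4.31, -1.85 and 1.50. A cell held between 7225 and 81589 counts in total, with medians of 35670 in Ach1, 28121 in Ach2, 25756 in Glutamatergic cells and between 27729 and 43245 in the noradrenergic identities. Whether a count is a molecule or a read is not given.

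The genes lie on 5 chromosomes of the mm10 build. Tbx2 spans chr11:85832551-85841948 on the plus strand and Tbx3 spans chr5:119670669-119684724 on the plus strand. Tbx20 spans chr9:24718138-24774303 on the minus strand. Hmx1 spans chr5:35389108-35399730 on the plus strand. Sox4 spans chr13:28948919-28953713 and Sox11 spans chr12:27334264-27342574, both on the minus strand. Annotated transcripts overlap Tbx3 (Tbx3os1, antisense), Hmx1 (4930442P19Rik on the opposite strand and Gm43377 on the same strand) and Sox4 (Gm26735, opposite strand). None of these has a row in the table, and whether the counting used strand is not given, so the values of Tbx3, Hmx1 and Sox4 could include reads of these transcripts.

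Upstream sequences are shown for Tbx20, Hmx1, Sox4 and Sox11, of which 3 were lower and 1 was higher in cholinergic cells. These are the 4 of the 6 genes matched in the RefSeq promoter table. Each is the stretch of 200 bases before the RefSeq start in GRCm38.p6, written 5′ to 3′ on the strand of the gene. Capitals mark an E-box (CANNTG) or a CCAAT box (CCAAT, or ATTGG on the other strand).
Tbx20, chr9:24774304-24774503, minus strand: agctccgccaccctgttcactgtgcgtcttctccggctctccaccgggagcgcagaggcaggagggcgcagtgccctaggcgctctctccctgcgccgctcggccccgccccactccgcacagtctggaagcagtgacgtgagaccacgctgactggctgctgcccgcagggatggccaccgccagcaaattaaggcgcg
Hmx1, chr5:35388661-35388860, plus strand: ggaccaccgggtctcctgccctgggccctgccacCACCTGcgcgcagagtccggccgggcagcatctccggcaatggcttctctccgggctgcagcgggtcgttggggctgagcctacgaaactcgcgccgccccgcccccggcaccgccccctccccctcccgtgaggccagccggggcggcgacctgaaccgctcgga
Sox4, chr13:28953700-28953899, minus strand: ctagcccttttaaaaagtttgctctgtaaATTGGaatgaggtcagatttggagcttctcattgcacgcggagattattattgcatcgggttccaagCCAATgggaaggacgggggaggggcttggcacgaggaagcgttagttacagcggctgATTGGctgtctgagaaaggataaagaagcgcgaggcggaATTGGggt
Sox11, chr12:27342719-27342918, minus strand: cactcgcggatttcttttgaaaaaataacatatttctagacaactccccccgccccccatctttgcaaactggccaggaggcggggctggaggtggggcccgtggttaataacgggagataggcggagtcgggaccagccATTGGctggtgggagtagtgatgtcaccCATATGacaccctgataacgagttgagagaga
The Sox4 stretch held 4 CCAAT boxes, the Sox11 stretch held 1 CCAAT box and 1 E-box, the Hmx1 stretch held 1 E-box, and the Tbx20 stretch held 0 of either. Among 32505 upstream stretches of the same length, 58.2% held an E-box and 29.3% held a CCAAT box on either strand. On either strand, 0 of the 4 stretches held the letters AGATAA of a GATA motif, which 7.81% of all stretches held. The Sox letters ACAAAG were likewise in 0 of the 4 and in 13.3% of all stretches. For the T-box core, AGGTGT, the numbers were 0 of 4 and 9.36%. The HMX motif, CAAGTG, which is also an E-box, was in 0 of the 4 and in 8.99% of all. GC content was 69% for Tbx20 and 75.5% for Hmx1, against 50% for Sox4 and 54% for Sox11, and the median of all stretches was 53%. Such matches describe letters in this window and are not evidence of binding.

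**Figure D1:**
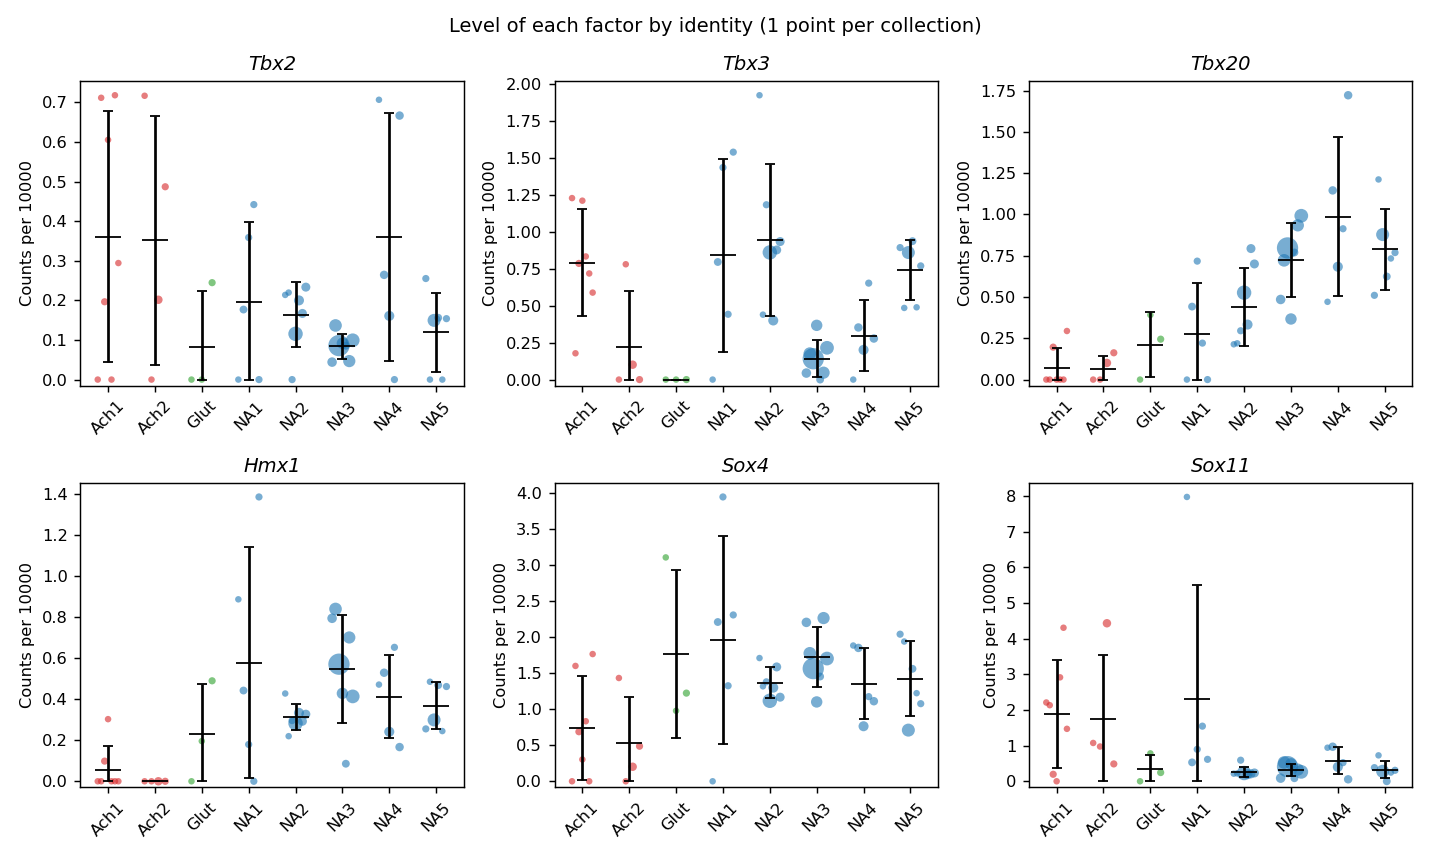
Level of each gene (vertical axis, counts per 10000) in each identity (horizontal axis), with 1 point per collection sized by its number of cells, and bars for the mean and SD over collections, drawn no lower than 0. Tbx20 and Hmx1 sit low in Ach1 and Ach2 (red). Sox4 is lower there on average, but its points reach 1.77 in Ach1 and 1.43 in Ach2, among the noradrenergic points. Sox11 reaches its high values in Ach1, Ach2 and a single Noradrenergic1 cell at 7.98, and Tbx3 is low in Noradrenergic3.

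Levels are given in counts per 10000, pooled over the cells of a collection, as mean ± SD over collections, and are not compared between genes. Fold changes are on the log2 scale from edgeR's quasi-likelihood test, fitted with identities weighted equally and collections as a block, with p-values adjusted over all genes tested. The SE of a fold change restates this test. A gene was called at an adjusted p under 0.05.

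Most calls fell between transmitter types. In cholinergic against noradrenergic cells, Tbx20, Hmx1 and Sox4 were lower and Sox11 was higher, so that 4 of the 6 genes were called, where 4.57% of the 11555 genes tested were called in either direction, 2.4% lower and 2.17% higher. On the log2 scale the median difference was -0.20 over all genes tested and -1.14 over the 6 genes. In Glutamatergic against noradrenergic cells 1 of the 6, Tbx3, was called (lower), where 2.63% of all genes were called and 1.01% were lower. Tbx3 was also the 1 gene of the 6 called among noradrenergic identities, higher in Noradrenergic2 (1.64% of all genes called, 1.36% higher) and lower in Noradrenergic3 (1.74% called, 0.277% lower). In Noradrenergic1 (1.39%), Noradrenergic4 (1.25%) and Noradrenergic5 (1.41%), each against the other 4, 0 of the 6 were called by edgeR, although unadjusted p-values were under 0.05 for 4, 3 and 1 of them, and for 1082, 1150 and 951 of the 11555 genes tested. Between Ach1 and Ach2 (0.138% of all genes called) 0 of the 6 were called either, and Tbx3 alone had an unadjusted p under 0.05, of 0.0179, as did 856 of the 11555 genes.

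**Figure D2:**
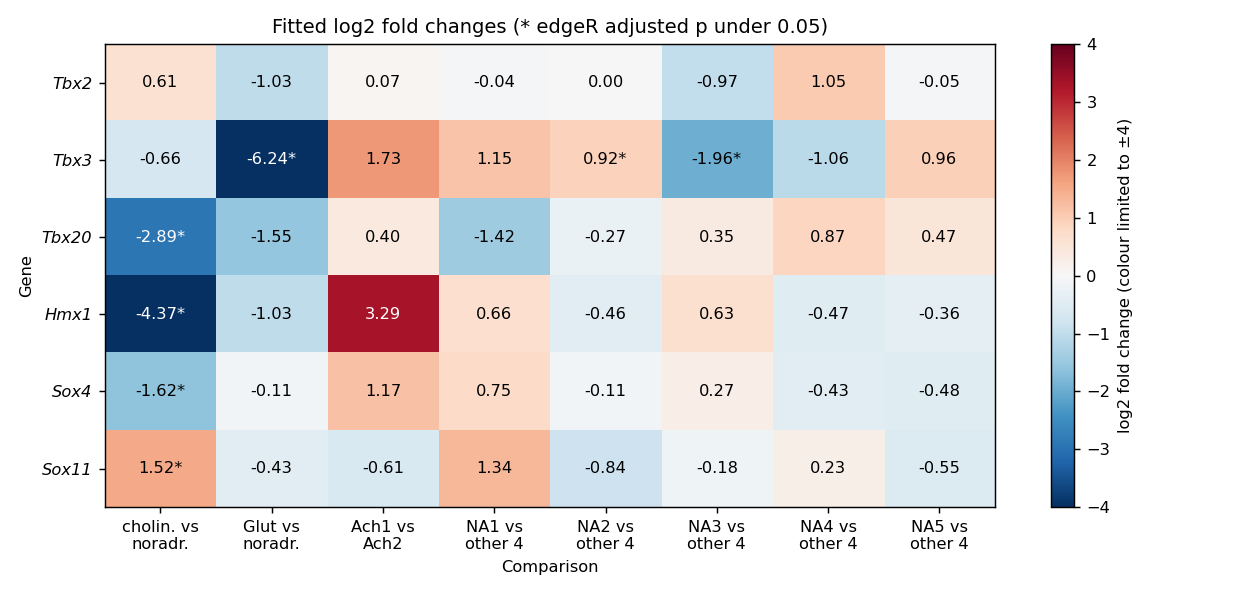
Fitted log2 fold change of each gene (rows) in each comparison between identities (columns), with colour limited to ±4 and a star where the edgeR adjusted p is under 0.05. The first column carries 4 stars, at -2.89, -4.37, -1.62 and 1.52, and the other 3 stars are in the Tbx3 row.

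Among the T-box genes, Tbx20 was lower in cholinergic cells than in the noradrenergic identities pooled. Its mean level was 0.987 ± 0.482 (SD, n = 5 collections) in Noradrenergic4, 0.788 ± 0.243 (n = 6) in Noradrenergic5, 0.724 ± 0.227 (n = 7) in Noradrenergic3, 0.440 ± 0.235 (n = 7) in Noradrenergic2 and 0.276 ± 0.307 (n = 5) in Noradrenergic1. Glutamatergic cells had 0.212 ± 0.198 (n = 3), Ach1 0.0701 ± 0.123 (n = 7) and Ach2 0.0658 ± 0.0800 (n = 4). No neighbours in this order differed by more than the sum of both their SDs. Pooled over identities, the noradrenergic side ran from 0.214 to 0.996 over 10 collections with a median of 0.608, and the cholinergic side from 0 to 0.209 over 7 collections with a median of 0. The groups did not overlap, and the cholinergic value was lower in 7 of 7 collections that held both. Overlap and direction by collection, here and below, were not counted over the other genes tested, so how unusual they are is unknown. Noradrenergic1 taken alone ran from 0 to 0.718 and did overlap the cholinergic range.

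Only 4 of 16 cholinergic cells held a Tbx20 count, against 177 of 193 noradrenergic cells. In sum there were 5 counts against 537, a pooled level 7.95-fold lower with an exact 95% interval of 3.38 to 24.6. This interval, like the others on pooled levels below, covers counting error only. Intervals on a share of cells treat cells as independent draws and leave out the spread between collections. The fitted log2 difference was -2.89 (SE 0.54), with an edgeR adjusted p of 5.03e-06. With each cell thinned to 10000 counts it was -4.81 (edgeR adjusted p 0.00079).

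Within the noradrenergic identities, Tbx20 was lower in Noradrenergic1 than in the other 4 in 4 of 4 collections, and higher in Noradrenergic4 in 3 of 5. Neither difference was called, with log2 fold changes of -1.42 (edgeR adjusted p 0.164) and 0.87 (edgeR adjusted p 0.191). The share of cells with a Tbx20 count was 60% in Noradrenergic1 (exact 95% interval 26.2 to 87.8%) and 91.3 to 94.4% in the other 4. After thinning to 10000 counts per cell it was 30% in Noradrenergic1 and 38.5 to 66.7% in the others. The 4 Glutamatergic cells held 3 Tbx20 counts, a pooled level 2.95-fold lower than the noradrenergic one (exact 95% interval 1.00 to 14.3), and the edgeR adjusted p was 0.425. Of these counts, 2 came from the P33 female cell with Th.

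Tbx3 differed among the noradrenergic identities. Its mean level was 0.945 ± 0.513 (n = 7) in Noradrenergic2, 0.842 ± 0.654 (n = 5) in Noradrenergic1, 0.792 ± 0.363 (n = 7) in Ach1 and 0.739 ± 0.203 (n = 6) in Noradrenergic5. Lower levels were found in Noradrenergic4, at 0.297 ± 0.238 (n = 5), Ach2, at 0.220 ± 0.376 (n = 4), and Noradrenergic3, at 0.141 ± 0.126 (n = 7), and Glutamatergic cells were at 0. In this order the step from Noradrenergic5 to Noradrenergic4 was larger than the sum of both SDs. The 0 counts of the 4 Glutamatergic cells allow a pooled level of up to 0.248, above the Noradrenergic3 mean, so those neighbours cannot be ordered.

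In Noradrenergic3, the largest identity, Tbx3 ran from 0 at P34 to 0.367 at P33, with a median of 0.141. The other 4 noradrenergic identities, pooled, ran from 0.439 at P20 to 1.92 at P16 over 10 collections, with a median of 0.626. Both ends are 1 Noradrenergic2 cell each, with 2 counts at P20 and 9 at P16. The groups did not overlap, and Noradrenergic3 was lower in 7 of 7 collections. How many of the other genes tested were likewise apart was not counted. A Tbx3 count was held by 33 Noradrenergic3 cells, or 32.04% (exact 95% interval 23.2 to 42.0%), and by 71 of 90 cells of the other identities. The log2 difference was -1.96 (SE 0.29), with an edgeR adjusted p of 1.50e-08. In cells thinned to 10000 counts it was -1.23 and no longer called (edgeR adjusted p 0.205). In a separate random draw to that depth, a Tbx3 count was left in 11.7% of Noradrenergic3 cells.

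Transcripts of other cells differed in the same comparison. Of the marker lists, 2 of 5 fibroblast genes tested (Lum, 2.48, and Col3a1, 1.41), 2 of 3 mural cell genes (Myh11, 3.06, and Rgs5, 1.85) and 1 of 2 endothelial genes (Flt1, 2.64) were higher on the log2 scale in Noradrenergic3. So were 2 of 3 chromaffin and small intensely fluorescent cell genes (Chga, 1.97, and Chgb, 0.91), granins that sympathetic neurons also make, with a median sum of 10.4 counts per 10000 against 6.14. Summed fibroblast markers reached 98.9 counts per 10000 in 1 Noradrenergic3 cell and had a median of 0. None of the 12 glial genes tested was called, and the summed glial level had a median of 3.23 in Noradrenergic3 and 3.44 in the other noradrenergic cells. With the glial sum or the sum of stress genes as a covariate the Tbx3 call held. The part of fibroblast, mural, endothelial and chromaffin transcripts in it was not tested.

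Noradrenergic2 held the highest mean Tbx3 over collections. Pooled over all cells, the level was 0.828 in Noradrenergic2, 0.999 in Noradrenergic1 and 0.825 in Noradrenergic5. By collection, Noradrenergic2 ran from 0.400 at P33 to 1.92 at P16, the latter from 1 cell with 9 counts. Its median over 7 collections was 0.877. The pooled other 4 identities ran from 0.127 to 0.492 over 8 collections, with a median of 0.301. The ranges overlapped, and Noradrenergic2 was the higher in 4 of 5 shared collections, P33 being the exception. A Tbx3 count was held by 34 of 39 Noradrenergic2 cells against 70 of 154. The log2 difference was 0.92 (SE 0.26), with an edgeR adjusted p of 0.0286. The call was lost with RLE size factors (0.82), DESeq2 (0.88) or thinned cells (1.41), where the log2 difference kept its sign, and without any 1 of the P29 male, P30 female, P31 female or P38 male collections, where the log2 fold change lay between 0.78 and 0.96 and the edgeR adjusted p between 0.0865 and 0.465.

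Other Tbx3 differences were not called. Between transmitter types the cholinergic side was higher in 4 of 7 shared collections, with medians of 0.718 and 0.447, and the log2 difference, which weighs identities equally, was -0.66 (edgeR adjusted p 0.453). Noradrenergic5 was higher than the other 4 in 6 of 6 collections, by 0.96 on the log2 scale (edgeR adjusted p 0.138), and Noradrenergic4 differed by -1.06 (edgeR adjusted p 0.238). Noradrenergic1 was higher in 3 of 4 collections, by 1.15 (edgeR adjusted p 0.160), and was called in libraries of at least 2 cells (1.29, edgeR adjusted p 0.0481). A Tbx3 count was held by 8 of 8 Ach1 cells and by 2 of 8 Ach2 cells, with 23 and 5 counts in sum, and 4 of the 5 Ach2 counts came from a single cell of the P30 female collection. That difference was 1.73 on the log2 scale with an edgeR adjusted p of 0.595.

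In the 4 Glutamatergic cells Tbx3 had 0 counts, against 104 of 193 noradrenergic cells with a count. With 0 of 4 cells, the exact 95% interval of the share reaches 60.2%. If 3 counts are taken as the limit for the 4 cells together, the pooled level was at least 1.75-fold lower than the noradrenergic one. The fitted log2 difference of -6.24 (SE 1.86, edgeR adjusted p 0.0356) depends on the prior count and is no bound. In these 4 cells the summed stress genes had a median of 49.4 counts per 10000 and the summed glial genes 34.4, against 12.5 and 3.23 in noradrenergic cells. This call was lost with RLE size factors, DESeq2, thinned cells, libraries of at least 2 cells, the stress gene sum as a covariate, or without P29 male, P31 female or P33 female, the 3 collections that hold these cells. With at least 2 cells required, 1 Glutamatergic library is left.

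Tbx2 was called in 0 of the comparisons. Its mean level was 0.361 ± 0.317 (n = 7) in Ach1, 0.360 ± 0.313 (n = 5) in Noradrenergic4 and 0.351 ± 0.315 (n = 4) in Ach2, and between 0.0816 and 0.196 in the other 5 identities. No neighbours were apart by more than the sum of both their SDs. The cholinergic value was above the noradrenergic one in 7 of 7 collections, with medians of 0.372 and 0.151, but the ranges overlapped and the log2 fold change was 0.61 (edgeR adjusted p 0.603). A Tbx2 count was held by 10 of 16 cholinergic cells and 63 of 193 noradrenergic cells. In Noradrenergic4, 1 cell held 8 of the 22 Tbx2 counts.

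Hmx1 was lower in cholinergic cells, and 0 of its counts were in Ach2. Its mean level was 0.579 ± 0.561 (n = 5) in Noradrenergic1, 0.547 ± 0.263 (n = 7) in Noradrenergic3, 0.412 ± 0.203 (n = 5) in Noradrenergic4, 0.369 ± 0.114 (n = 6) in Noradrenergic5 and 0.311 ± 0.0633 (n = 7) in Noradrenergic2. It was 0.228 ± 0.246 (n = 3) in Glutamatergic cells, 0.0573 ± 0.114 (n = 7) in Ach1 and 0 in all 4 Ach2 collections. No neighbours in this order differed by more than the sum of both their SDs. The noradrenergic side ran from 0 in P30 male, which holds 2 noradrenergic cells, to 0.705 over 10 collections, with a median of 0.422, and the cholinergic side from 0 to 0.303 over 7, with a median of 0. The ranges overlapped, and the cholinergic side was lower in 6 of 7 shared collections, with both sides at 0 in P30 male.

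In sum, 16 cholinergic cells held 2 Hmx1 counts, in 2 cells, and 193 noradrenergic cells held 341, in 147 cells. The pooled level was 12.6-fold lower, with an exact 95% interval of 3.47 to 105. The fitted log2 difference was -4.37 (SE 0.85), with an edgeR adjusted p of 1.96e-05, and -3.22 in thinned cells (edgeR adjusted p 0.0424). For Ach2, with 0 counts in 8 cells, the level was at least 3.71-fold lower than the noradrenergic level with 3 counts taken as the limit for the 8 cells together, and the exact interval of the share reaches 36.9%. Both cholinergic cells with an Hmx1 count were Ach1 cells that also held Th, the rate-limiting enzyme of noradrenaline synthesis, at 61 and 46 counts.

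Within the noradrenergic identities Hmx1 was called in 0 comparisons. Its 1 difference with an unadjusted p under 0.05 was 0.63 on the log2 scale in Noradrenergic3 (edgeR adjusted p 0.267), where 84.5% of cells held a count, against 60 of 90 cells in the other 4. Of the 4 Glutamatergic cells 3 held an Hmx1 count, 1 count each, among them the P33 female cell with Th. The pooled level was 1.87-fold lower than the noradrenergic one, with an exact 95% interval of 0.635 to 9.12 that includes no difference.

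The SoxC genes moved in opposite directions between the transmitter types. Sox4 had a mean level of 1.96 ± 1.45 (n = 5) in Noradrenergic1, 1.77 ± 1.16 (n = 3) in Glutamatergic cells, 1.72 ± 0.411 (n = 7) in Noradrenergic3 and 1.43 ± 0.517 (n = 6) in Noradrenergic5. It was 1.37 ± 0.214 (n = 7) in Noradrenergic2, 1.36 ± 0.492 (n = 5) in Noradrenergic4, 0.742 ± 0.718 (n = 7) in Ach1 and 0.530 ± 0.634 (n = 4) in Ach2. The noradrenergic side, pooled, ran from 1.22 to 2.13 over 10 collections with a median of 1.46, and the cholinergic side from 0 to 0.942 over 7 with a median of 0.583. These groups did not overlap, and the cholinergic side was lower in 7 of 7 shared collections. How many of the other genes tested were likewise apart was not counted. Taken apart, Ach1 reached 1.77 and Ach2 1.43 in a collection, within the noradrenergic range.

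A Sox4 count was held by 9 of 16 cholinergic and 187 of 193 noradrenergic cells. The log2 difference was -1.62 (SE 0.30), with an edgeR adjusted p of 7.28e-06, and it was -3.63 in thinned cells (edgeR adjusted p 0.000291). In a separate random draw to the same depth, 5 of 8 Ach1 cells and 1 of 8 Ach2 cells kept a Sox4 count, against 59.1 to 80% of cells in the noradrenergic identities. Every Ach1 cell with a Sox4 count kept one in that draw, even the P33 cell with 1 count. The Ach1 share is thus 1 random outcome and cannot place Ach1 within or below the noradrenergic range. The fold change weighs Ach1 and Ach2 equally. Ach1 and Ach2 were both uneven, with 0 to 9 and 0 to 4 Sox4 counts per cell. Sox4 differed between them by 1.17 on the log2 scale (edgeR adjusted p 0.686). Every Noradrenergic2 and Noradrenergic3 cell held a Sox4 count. Noradrenergic1 had 68 counts in 10 cells and a log2 difference of 0.75 from the other 4 (edgeR adjusted p 0.247), which was called with RLE size factors (0.95, edgeR adjusted p 0.0429), with DESeq2 (0.95, DESeq2 adjusted p 0.0401), in libraries of at least 2 cells (0.94, edgeR adjusted p 0.0176) and without P30 female (1.00, edgeR adjusted p 0.0447).

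Sox11 went the other way. Its mean level was 2.31 ± 3.19 (n = 5) in Noradrenergic1, 1.89 ± 1.51 (n = 7) in Ach1 and 1.74 ± 1.81 (n = 4) in Ach2, and 0.578 ± 0.385 (n = 5) in Noradrenergic4. In Glutamatergic cells, Noradrenergic5, Noradrenergic3 and Noradrenergic2 it lay between 0.271 and 0.343. No neighbours in this order differed by more than the sum of both their SDs. The cholinergic side was 4.31 at P30 male, 4.14 at P29 male, 1.75 at P16, 1.58 at P30 female, 0.837 at P38, 0.196 at P31 and 0 at P33. The noradrenergic side ran from 0.127 to 1.55 over 10 collections, with a median of 0.294. The ranges overlapped, with the cholinergic side above in 5 of 7 shared collections and below at P31 and P33.

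A Sox11 count was held by 14 of 16 cholinergic and 118 of 193 noradrenergic cells. The log2 difference was 1.52 (SE 0.27), with an edgeR adjusted p of 1.89e-06. This call rested on few cells. Without the P29 male collection, which holds 5 of the 16 cholinergic cells, the log2 fold change was 0.50 (edgeR adjusted p 0.624), in libraries of at least 2 cells it was 0.99 (edgeR adjusted p 0.648) and in thinned cells 1.37 (edgeR adjusted p 0.0614).

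**Figure D3:**
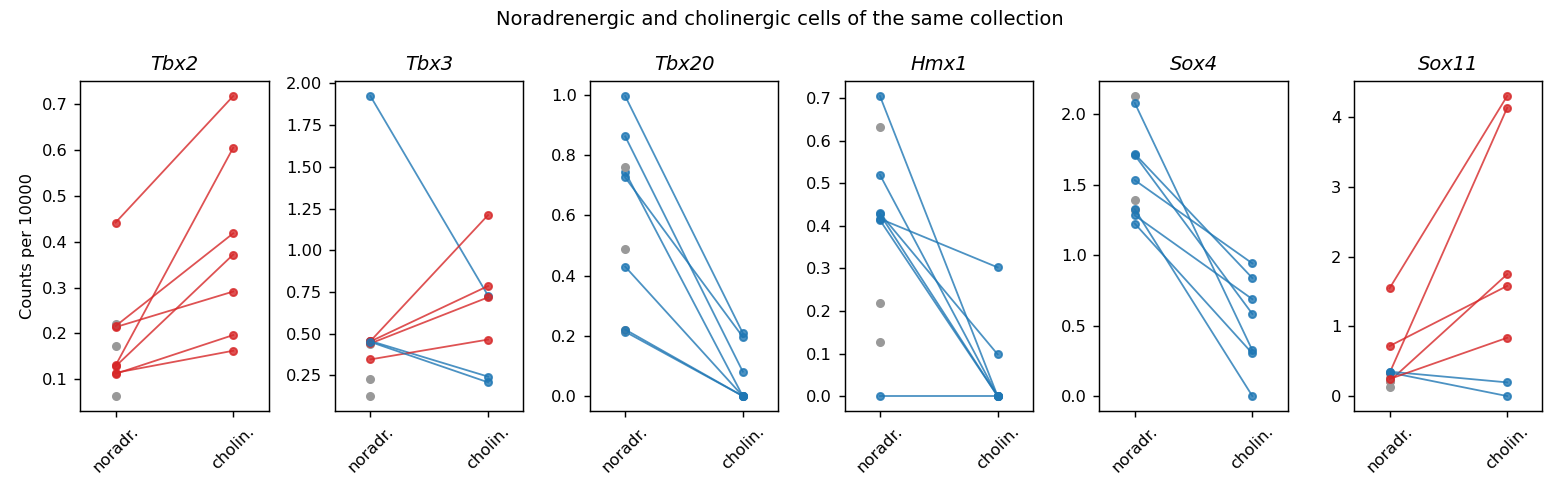
Level of each gene (vertical axis, counts per 10000) in the noradrenergic and cholinergic cells of each collection (horizontal axis), joined by a line that is red where the cholinergic value is higher and blue otherwise, with grey points for the 3 collections without cholinergic cells. All 7 lines fall for Tbx20 and Sox4, and 5 of 7 rise for Sox11.

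The single cholinergic cells show how Sox11 was spread. Of the 8 Ach1 cells, 4 held 0 Th counts, and their Sox11 counts were 9, 7, 12 and 6. The other 4, with 61, 33, 46 and 57 Th counts, held 1, 1, 0 and 5 Sox11 counts. The first 4 came from the P16, P29 male, P30 female and P30 male collections and the others from P31, P33 and P38, so Th content and collection cannot be told apart. In Ach2 the 4 cells of P29 male held 11, 10, 8 and 15 Sox11 counts, and the other 4 held 3, 5, 0 and 3. Th counts in these 8 Ach2 cells were between 0 and 3. Sox11 differed between Ach1 and Ach2 by -0.61 on the log2 scale (edgeR adjusted p 0.773), and was called in libraries of at least 2 cells (-3.78, edgeR adjusted p 0.0282). That setting leaves 1 Ach1 library, of P31, and 2 Ach2 libraries, of P29 male and P38, so it compares different collections and assumes that the lone library varies like the others. Sox4 was at 0 to 2 counts in the 5 cholinergic cells of P29 male.

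Glial and stress transcripts were also higher in cholinergic cells. The summed level of 15 satellite glia and Schwann cell genes had a median of 27.1 counts per 10000 and a range of 0.466 to 56.01 in cholinergic cells, with Gfap at 0, against a median of 3.23 and a range of 0 to 69.7 in noradrenergic cells. In the test 1 of 12 such genes, Sostdc1, was called (log2 fold change 1.35). The sum of 20 immediate-early and stress genes had medians of 26.3 and 12.5, and 1 of 20, Ier3, was called (1.18). Among the Ach1 cells without Th the stress sum ran from 18.2 to 91.7, and in the other 4 from 5.28 to 19.8. With the glial or the stress sum as a covariate, chosen after seeing the data, the Sox11 fold change was 1.50 or 1.49 and the calls for Tbx20, Hmx1, Sox4 and Sox11 held. Of the other cell lists, 0 of 5 fibroblast, 0 of 3 mural and 0 of 2 endothelial genes were called, 0 macrophage genes could be tested, 2 of 7 sensory neuron genes were higher, and of 3 chromaffin genes 1 was higher and 1 lower.

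**Figure D4:**
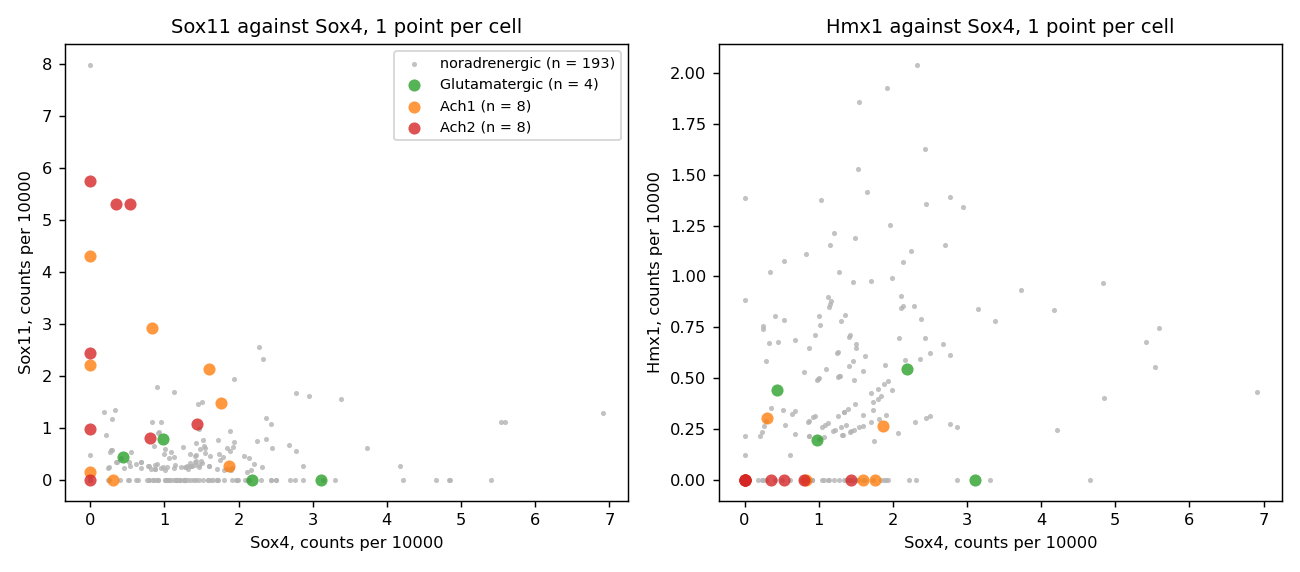
Single cells, with Sox4 on the horizontal axis against Sox11 (left) and Hmx1 (right) on the vertical axis, both in counts per 10000, coloured by identity. The 4 cholinergic cells with Sox11 between 4.31 and 5.74 lie at Sox4 levels of 0 to 0.529, the Ach1 cell of P30 female has 2.13 for Sox11 and 1.60 for Sox4, and 14 of 16 cholinergic cells lie at 0 Hmx1.

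Sox11 in Noradrenergic1 was above the other 4 in 4 of 4 shared collections. It ran from 0.531 to 7.98 with a median of 0.897, against 0.127 to 0.612 with a median of 0.259, and the ranges overlapped. The top value is 1 cell of P30 female with 9 Sox11 counts. The log2 difference was 1.34 (SE 0.41), with an edgeR adjusted p of 0.0638. It was called with RLE size factors (1.47, edgeR adjusted p 0.0351) and without P11 or P31 female (1.39 and 1.75, edgeR adjusted p 0.0450 and 0.0412). In Glutamatergic cells Sox4 and Sox11 were not called, at log2 fold changes of -0.11 and -0.43 (edgeR adjusted p 0.989 and 0.874). The P33 female cell with Th held 4 of their 5 Sox11 counts. The sign of the Sox4 difference changed with RLE size factors, to 0.30.

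Sex and age were compared in Noradrenergic3, the 1 identity with at least 3 cells in 7 collections. Between male and female collections 0 of the 6 genes were called, where edgeR called 0.0296% of 10141 genes, or 3, and 397 had an unadjusted p under 0.05. Sox4 had the smallest unadjusted p of the 6, with male collections at 2.27 (P29) and 1.70 (P38) and female collections between 1.10 and 2.21, so that the sexes overlapped. Its log2 fold change was 0.45 (edgeR adjusted p 1.00).

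Per 10 days of age 0 of the 6 genes were called either, where 1.25% of genes were. The log2 slope was -0.32 for Sox4 (edgeR adjusted p 0.242), -0.40 for Hmx1 (0.469), 1.41 for Tbx3 (0.322) and 0.57 for Sox11 (0.531). The P11 collection is much younger than the other 6, which lie between P29 and P38. Without it the Sox11 slope was -0.52 and the number of genes called over the table fell from 127 to 6, with 6 Noradrenergic3 cells in P11. The slopes of Sox4, Hmx1 and Tbx3 kept their sign with any 1 collection left out, at -0.52 to -0.29, -1.21 to -0.32 and 0.97 to 2.20, and that of Tbx20 was -0.03 without P11.

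**Figure D5:**
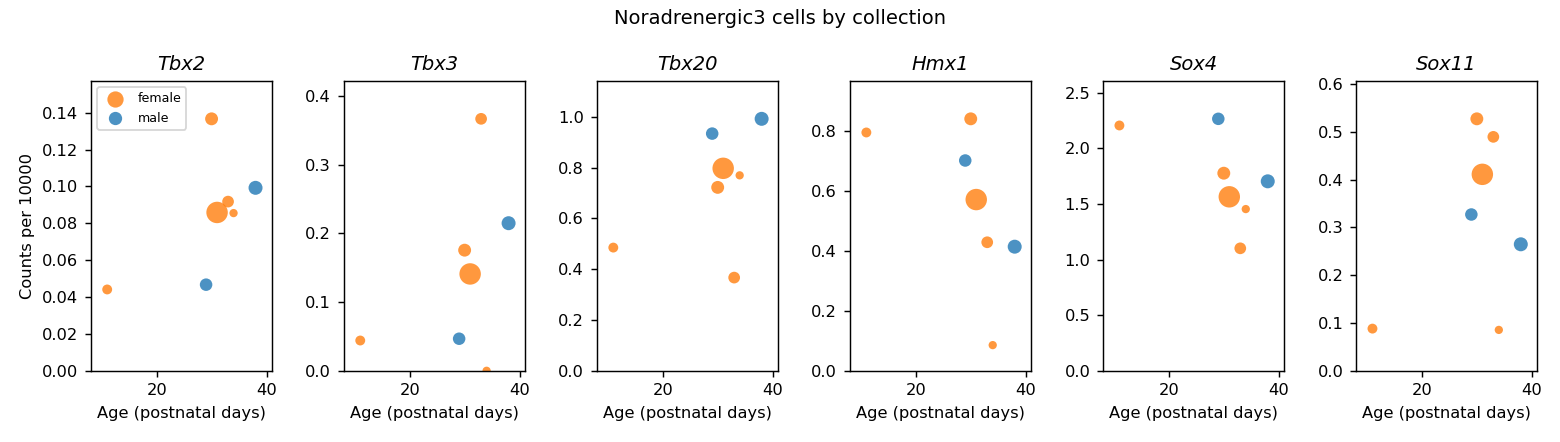
Level in Noradrenergic3 cells (vertical axis, counts per 10000) against age (horizontal axis, postnatal days), with 1 point per collection sized by its number of cells and coloured by sex. A single collection, at day 11, lies apart in age, and the male and female points overlap for Sox4.

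Within Noradrenergic3, the spread of counts from cell to cell was set beside genes of like mean. In cells thinned to 10000 counts the variance of Sox4 was 1.98 times its mean. Over 544 genes of like mean the median was 1.11 and the 95th percentile 1.55. The ratio was 1.42 for Sox11 (median 1.05, 95th percentile 1.41) and 1.29 for Hmx1 (1.05 and 1.43), so Hmx1 lay within the usual range. In the 43 cells of P31 alone the ratios were 1.51 for Sox4, 1.52 for Hmx1 and 1.99 for Sox11. The 95th percentile was 1.54 for each, and Sox11 alone exceeded it. For Tbx2, Tbx3 and Tbx20 the ratio in all Noradrenergic3 cells was between 0.931 and 1.16. Counts of any pair of the 6 genes across these thinned cells had Pearson correlations between -0.195 and 0.217, the highest for Tbx3 with Sox11 (Spearman 0.285), which are weak values in sparse counts and no finding. All of Tbx3, Tbx20, Hmx1, Sox4 and Sox11 were counted together in 13 of 39 Noradrenergic2 cells and in 17 Noradrenergic3 cells, a smaller share of that larger identity. The median total was 43245 counts per cell in Noradrenergic2 and 36658 in Noradrenergic3.

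Of 193 noradrenergic cells, 143 held both Hmx1 and Sox4 and 172 both Tbx20 and Sox4. Among 16 cholinergic cells, 6 held Sox11 without Sox4, 8 held both, and 1 held neither. A cell with Sox11 and no Sox4 was found in 2 of 193 noradrenergic cells. These shares depend on depth and on the level of each gene.

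The relatives of these factors were mostly sparse. Of 14 other T-box genes 9 had a row, 4 of those had 0 counts in the named cells, and Mga, which pairs with Max as well as binding T-box sites, was the 1 gene tested, with a log2 fold change of 0.31 in cholinergic cells (edgeR adjusted p 0.753). Of 17 other Sox genes 13 had a row and 4 were tested. Sox12, the other SoxC gene, was held by 75 of 213 named cells, and its log2 fold change was -0.79 (edgeR adjusted p 0.682). Sox10, the defining Sox factor of glia, was held by 32 of 213 and differed by 0.21 (edgeR adjusted p 0.986). Of 37 HMX and other NK-like homeobox genes 14 had a row and 1, Tlx2, was tested. Tlx2 was held by 207 of 213 named cells and was not called, and Hmx2, a close relative of Hmx1, had 0 counts. None of these relatives was called in the comparison of transmitter types.

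Genes linked to these factors by earlier work were followed in the same comparison. Of 12 sympathetic lineage factors tested, 5 were lower in cholinergic cells (Gata2, -1.82; Tfap2b, -1.29; Hand1, -1.16; Isl1, -0.80; Hand2, -0.66, on the log2 scale) and 1 was higher (Satb1, 0.94), with a list median of -0.65. Among the receptors of sympathetic diversification, a list not given in full here, Gfra2 (3.19), Ntrk2 (1.99) and Ret (1.55) were higher and Gfra3 (-4.57) was lower. Of 8 neuronal genes known to respond to Sox4 and Sox11, 1 was higher (Nefl, a neurofilament subunit, 1.23) and 2 were lower (Stmn1, -0.97; Stmn2, -0.62). Of 14 axon injury genes, a programme in which Sox11 takes part after nerve lesion, 1 was higher (Atf3, 1.17) and 3 were lower (Gal, -5.49; Ecel1, -4.61; Tubb2b, -0.85). These lists were written with earlier results of these data known.

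The pattern of each gene over libraries was set beside all other genes. Across 18 libraries of 1 identity and collection with at least 3 cells, on the log2 CPM scale, Hmx1 and Sox4 had a Pearson correlation of 0.817 and Tbx20 and Sox4 one of 0.548, while Sox11 had -0.538 with Tbx20 and -0.526 with Sox4. These libraries share collections and range widely in depth, and with at least 3 cells required only 1 of them is cholinergic. The genes with the highest correlation were Rc3h2 (0.920) and Lmtk2 (0.867) for Tbx20, and Spock3 (0.828), Htr3b (0.822) and Brinp1 (0.822) for Tbx3. For Tbx2 they were Magee1 (0.770), Hsd11b1 (0.758) and Tbc1d32 (0.720), and for Hmx1 Khdrbs1 (0.892), Fdx1 (0.854) and Hnrnpr (0.841). Sox4 was most like Maml3 (0.869), Prkcb (0.857) and Tcf4 (0.841), and Sox11 most like Entpd2 (0.904), Ugdh (0.890) and Crebrf (0.870). Over the 8 identities, pooled, the correlation was 0.907 for Sox4 with Tcf4 and 0.0380 for Hmx1 with Fdx1.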

How the data were processed

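The authors deposited 1 table of counts per gene and cell, with whole numbers for 16892 genes in 298 cells. Enzymatic dissociation, capture on C1 microfluidic chips, inspection of each captured cell by eye and Tn5 library preparation are given per the labels' protocols. The build is mm10 per the submitters' processing notes. The aligner, the counter, the annotation and whether molecules were collapsed are not given in the sources used here. Every column matched 1 labelled cell, and 0 pairs of columns were identical.

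Counts were summed over the cells of 1 identity and collection (sex and age), giving 44 libraries of the 213 named cells. Cells are not replicates, and the labels name no animals. Between identities, with the collection as a block, p-values measure how identity differences vary over collections, with the spread estimated jointly over the libraries. Several libraries of Ach1, Ach2 and Glutamatergic cells hold a single cell, so there the spread also holds cell differences and counting error. Within Noradrenergic3, p-values measure the spread between collections. A gene was kept where its summed count reached 20 and 3 or more libraries held it, and kept genes were tested with edgeR 4.0.16 (quasi-likelihood, TMM, R 4.3.3, limma 3.58.1), with the collection as a block and Benjamini-Hochberg adjustment at 0.05. Sex and age were fitted together within Noradrenergic3, over collections with at least 3 such cells. Alternatives were RLE size factors, other filters, no block, libraries of at least 2 cells, cells thinned to 10000 counts (4 shallower cells left out), DESeq2 1.42.0, each collection left out, and, chosen after seeing the data, a glial or stress covariate. The pairing of identities within a collection comes from the shared sex and age. Over 2306 genes in libraries of at least 5 cells, deviations of 4 same-collection pairs correlated at 0.294 to 0.401, and 20 other pairs at -0.0720 on average. The scripts were tested on simulated data, with 200 well-counted genes changed by 2 on the log2 scale at a dispersion of 0.1. The test called 90.5% of them for cholinergic, 71.5% for Noradrenergic1 and 48.5% for Glutamatergic cells. Real genes may spread more, and a gene not called in a small identity may still differ. Depth per cell limits how low a level can be seen, and exact 95% intervals on pooled counts cover counting error only. Exact binomial intervals on shares of cells treat cells as independent draws and leave out the spread between collections.

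The 6 genes and the 18 gene lists were chosen with earlier results of these data known. Named genes are the 6, per list the called genes (at most 4 by size of change, where none the 2 with the highest level), and the 3 genes most alike to each member by correlation of log2 CPM with a prior count of 2. Of the 6 lineage factors called in cholinergic cells, Isl1 and Hand2, which have the smallest changes, were named beyond this rule after their values were seen, as was 1 receptor, Ret. A gene that this rule names is not reported here.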

Additional observations from a re-analysis of the deposited data

Results flagged for a closer look

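Of 41 groups of 4 to 10 collections, 5 held a highest value far from the rest by Dixon's criterion. For normal values it marks about 1 group in 20 by chance. These are sparse counts from unequal numbers of cells, so that rate does not apply and 5 of 41 cannot be read as an excess. Tbx3 in Ach2 reached 0.780 counts per 10000 in P30 female, from 4 counts in 1 cell, against 0 to 0.101 in the others. Hmx1 in Ach1 reached 0.303 in P33 female, from 1 count in 1 cell, against 0 to 0.0982. Sox11 stood apart in 3 groups. In Ach2 it was 4.43 in P29 male, from 44 counts in 4 cells, against 0.487 to 1.08. In Noradrenergic1 it was 7.98 in P30 female, from 9 counts in 1 cell, against 0.531 to 1.55, and in Noradrenergic2 it was 0.592 in P30 female, from 6 counts in 2 cells, against 0.200 to 0.233.

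The 85 unclassified cells entered no comparison, and all 6 genes were counted there above the level that 3 counts would give, 0.0154 per 10000. Their pooled levels were 0.200 for Tbx2, 0.384 for Tbx3, 0.645 for Tbx20, 0.573 for Hmx1, 2.24 for Sox4 and 0.630 for Sox11, from 39, 75, 126, 112, 437 and 123 counts.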

How the results depend on the processing

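Of 1009 values of the 6 genes under an alternative, 938 kept direction and side of the threshold, 19 lost a call, 9 gained one and 43 changed sign. The sign changes fell on 17 of 60 results, 0 of them called, and the smallest adjusted p among them was 0.700. The calls for Tbx20, Hmx1 and Sox4 in cholinergic cells held under every alternative that gave a value, and the cause of the changes below was not tested. filterByExpr kept neither Tbx2, Tbx3, Tbx20 nor Hmx1 and so gave no value for them. Depth and few cells limit the small identities, since 16 cholinergic and 4 Glutamatergic cells carry these contrasts.

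Sign changes, as log2 fold changes, were as follows. Sox4 in Glutamatergic cells was 0.30 with RLE size factors, 0.22 with filterByExpr, 0.28 thinned and 0.31 with DESeq2. Tbx2 was 0.02 with RLE and 0.10 with DESeq2 in Noradrenergic1, and -0.05, -0.06 and, in libraries of at least 2 cells, -0.02 in Noradrenergic2. In those libraries, with 1 Glutamatergic and 1 Ach1 library left and assumed to vary like the others, Tbx2 was 0.45 in Glutamatergic cells, -0.02 for Ach1 against Ach2 and 0.28 in Noradrenergic5, and Sox11 was 0.04 in Noradrenergic3. Thinned cells gave 0.46 for Tbx2 in Glutamatergic cells, -1.15 for Tbx2 between Ach1 and Ach2, 0.29 for Sox11 in Noradrenergic3, -0.20 for Sox11 in Noradrenergic4, 0.05 for Tbx20 in Noradrenergic2 and 0.06 for Hmx1 in Noradrenergic4. Hmx1 between the sexes was -0.15 with no covariate.

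With 1 collection left out, ranges that crossed 0 were -0.42 to 0.66, -0.18 to 0.18, -0.37 to 0.07 and -0.74 to 0.61 for Tbx2 in Noradrenergic1, Noradrenergic2, Noradrenergic5 and Ach1 against Ach2. For Sox11 they were -2.19 to 0.07 in Glutamatergic cells, -1.08 to 0.71 between Ach1 and Ach2, -0.35 to 0.05 in Noradrenergic3 and -0.52 to 0.83 with age. They were -0.71 to 0.22 for Sox4 in Glutamatergic cells, -0.51 to 0.71 for Tbx20 between Ach1 and Ach2, -0.03 to 0.26 for Tbx20 with age, and -0.21 to 1.03 and -0.18 to 0.27 for Hmx1 in Noradrenergic1 and between the sexes.

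Without the replicate block, which pairs identities of 1 collection, Tbx2 was 0.17 in Noradrenergic1 and -0.04 in Noradrenergic2, 5 genes were called between Ach1 and Ach2, and no call among the 6 genes changed.

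Genes called over the table, 528, 304, 16, 161, 189, 201, 145 and 163 for cholinergic, Glutamatergic, Ach1 against Ach2 and Noradrenergic1 to Noradrenergic5, were 298, 141, 3, 88, 61, 56, 79 and 53 with filterByExpr and 250, 97, 3, 69, 73, 112, 44 and 43 thinned. Libraries of at least 2 cells gave 279, 184 and 242 for cholinergic, Glutamatergic and Noradrenergic1. DESeq2 gave 5, 114, 109 and 99 for Ach1 against Ach2, Noradrenergic2, Noradrenergic3 and Noradrenergic5. The stress covariate gave 143 for Glutamatergic cells, and the sex comparison gave 12 with no filter. With 1 collection left out the counts were 348 to 567, 91 to 360, 5 to 17, 90 to 166, 114 to 205, 117 to 207, 87 to 152 and 56 to 174 in the same order, 3 to 12 for sex and 6 to 159 for age.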

Other observations

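Tlx3, an NK-like homeobox gene known from sensory neurons, was below the filter and was chosen after its values were seen. It had 18 counts in 12 of 213 named cells, with 7 counts in the 8 Ach1 cells, 6 in the 8 Ach2 cells, 3 in the 4 Glutamatergic cells, 2 in Noradrenergic3 cells and 0 in the other noradrenergic identities. The 85 unclassified cells held 0.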
